A study of Mus with 21 samples.

Results

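Brains of mouse embryos with 1 deleted copy of Wapl were compared with wild-type brains, with every gene of the count table taken into account. The members were chosen by genotype label alone: 7 libraries labelled as WaplΔ/+ (one deleted and one intact Wapl copy, both Nipbl copies intact) and 5 labelled as wild type (WT, both copies of Wapl and Nipbl intact), 12 of the 21 libraries of the series. Each library was made from the poly(A) RNA of the whole brain of a female embryo at stage E17.5. The other 9 libraries came from 3 Nipbl+/- and 6 double heterozygous (WaplΔ/+ Nipbl+/-) embryos, of which the Nipbl+/- group is used below for a direct comparison. According to the study's methods, the Δ allele lacks the promoter and the first exons of Wapl, including the start of translation. It was made by Cre recombination (E2a-Cre) of a floxed allele built in R1 embryonic stem cells, which are of another strain, and was then crossed repeatedly to C57BL/6J, and the strain of the DNA next to Wapl in these embryos was not tested. The Nipbl+/- embryos carry a null allele made by germline Cre (Stra8-icre) recombination of a floxed Nipbl gene. Both deletions are in every cell, and homozygous loss of Wapl is lethal before implantation. The labels write the deleted copy first in WaplΔ/+ replicates 1 and 2 and second in replicates 3 to 7, without saying what the order stands for.

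Cohesin is a protein ring, built on SMC1A, SMC3 and RAD21, that holds DNA and extrudes it into loops which bring distant regulatory elements together. NIPBL, with MAU2, loads cohesin and drives extrusion, and WAPL, with PDS5, opens the ring and takes it off. The amount of WAPL therefore sets how long cohesin stays on chromosomes, and mutations of the loader in people cause Cornelia de Lange syndrome, in which brain development is affected. The comparison asks which genes respond in the developing brain when the release factor, not the loader, is reduced.

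The 12 libraries held 25682566 to 35818767 counts. Values are given as normalized counts, in which library totals were made comparable by the trimmed mean of M-values (TMM) method, and fold changes are log2(WaplΔ/+ over WT) ± standard error. A gene was called when its edgeR quasi-likelihood p-value, adjusted by the Benjamini-Hochberg method over all genes tested, was below 0.10. The p-values measure the spread between the embryos that were sequenced. Fewer genes had at least 1 count in the WaplΔ/+ libraries (28747 to 29868) than in the WT libraries (29690 to 30219), with an overlap between the groups. The mitochondrial transcript mt-Nd3 had at most 6 counts in 5 libraries (WT replicates 1 to 3 and WaplΔ/+ replicates 1 and 2) and 52 to 106 counts in the other 7, and these are called the low set and the high set. Within WaplΔ/+ the sets coincide with the order in which the deleted copy is written, so the set and the order cannot be told apart.

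Wapl was the gene with the strongest evidence of a change. It spans chr14:34672379-34747983 of GRCm38.p6, the build of the files. The 5 WT libraries had 1606, 1494, 1476, 1389 and 1495 normalized counts and the 7 WaplΔ/+ libraries 590.4 to 755 with a median of 721. The groups lay far apart, and every WaplΔ/+ library was under every WT library. WaplΔ/+ brains kept 46.7% ± 4.51 of the WT level (means 697 ± 67.4, SD, n = 7, and 1492 ± 77, SD, n = 5; log2 fold change -1.09 ± 0.056, adjusted p = 4.08e-10). Of the 19 cohesin ring and regulator genes tested, Wapl was the 1 that edgeR called. The log2 fold changes of the other 18 lay between -0.13 and 0.23, and their smallest adjusted p was 0.156. It belonged to Stag1, an alternative ring subunit, which measured 2041 to 2314 in WT and 1742 to 2082 in WaplΔ/+ (log2 fold change -0.12 ± 0.042). Nipbl measured 2402, 2147, 2019, 2041 and 2221 in WT and 1956 to 2243 with a median of 2138 in WaplΔ/+, so that the groups overlapped throughout (log2 fold change -0.03 ± 0.042, adjusted p = 0.809). Smc3 had 3152 ± 152 in WT and 3218 ± 108 in WaplΔ/+ (SD, log2 fold change 0.03 ± 0.034, adjusted p = 0.691).

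Of 30552 genes tested, 677 (2.22%) were called, of which 442 were lower (1.45%) and 235 higher (0.769%) in WaplΔ/+ brains. The changes were small, and 606 of the 677 were under 2-fold. The median log2 fold change was -0.32 over the lower calls and 0.18 over the higher calls. Among well measured genes the share of calls grew with the level, from 2.01% of genes at 1 to 10 CPM (counts scaled to the same library total) to 7.19% of genes above 100 CPM. For 185 of the 677 called genes the 2 groups did not overlap, against 368 (1.2%) of all genes tested. The number of calls rested on few libraries. It was 13 without WT replicate 1, 9 without WT replicate 2, 246 without WT replicate 4, 99 without WT replicate 5, 444 without WaplΔ/+ replicate 1, 1534 without WaplΔ/+ replicate 2, 241 without WaplΔ/+ replicate 4 and 264 without WaplΔ/+ replicate 5. It was 7 when all 4 genotypes were fitted together with 1 estimate of the spread, and 1446 (719 higher and 727 lower) with DESeq2. With the mt-Nd3 set as a term 305 genes were called, and within the low set (3 WT against 2 WaplΔ/+) and the high set (2 against 5) the counts were 47 and 278, the latter 16 higher and 262 lower. Wapl was the 1 gene called in both sets. The gene lists described below follow these counts: without WT replicate 1 or without WT replicate 2 no list had more than 1 called member, and without WT replicate 5 the most was 2, in axon guidance.

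**Figure D1:**
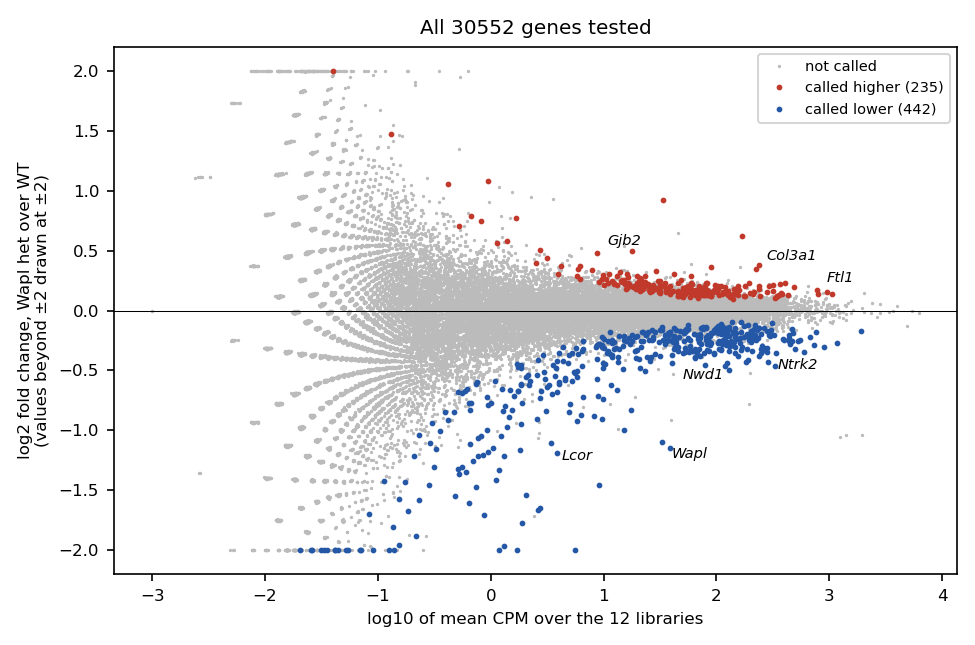
Log2 fold change of WaplΔ/+ over WT (y axis, drawn within ±2) against the mean level over the 12 libraries (x axis, log10 of CPM) for all 30552 genes tested. Red points are the 235 genes called higher and blue points the 442 called lower, most of them less than 2-fold away from WT, with Wapl among the few abundant genes near a log2 fold change of -1.

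In every one of the 12 fits that left out a library, 8 genes were called: Wapl, 5830448L01Rik, Nwd1, Mcc, Gm45718, Lcor, Homer2 and Gjb2. The other called genes described below were lost in 1 to 10 of those 12 fits. Of the 8, Nwd1, Gm45718, Lcor and Homer2 were not called with all 4 genotypes in one fit (adjusted p = 0.164 each). Homer2 (chr7:81600481-81706925), a scaffold that ties metabotropic glutamate receptors to the postsynaptic density, had 1656, 1528, 1309, 1385 and 1499.6 normalized counts in WT and 1029 to 1293 with a median of 1125 in WaplΔ/+. The highest WaplΔ/+ library stayed just under the lowest WT library, WT replicate 3 (log2 fold change -0.37 ± 0.057, adjusted p = 0.0117). Its log2 fold change was -0.36 among low-set and -0.35 among high-set libraries. Nwd1 (chr8:72646225-72716880), which encodes a NACHT and WD repeat protein, had 1524, 1451, 1372, 1629.8 and 1521 in WT and 898 to 1273 with a median of 1105 in WaplΔ/+ (log2 fold change -0.44 ± 0.058, adjusted p = 0.00316), also without overlap. Mcc, named after its mutation in colorectal cancers, had 506, 472, 496, 497 and 506 in WT and 322 to 408 with a median of 395 in WaplΔ/+, with a tight WT group and a gap between the groups (log2 fold change -0.39 ± 0.057, adjusted p = 0.0098). Lcor (chr19:41482682-41596161), a corepressor of nuclear receptors, had 144, 182, 123, 127 and 204 in WT and 47 to 114 with a median of 65.8 in WaplΔ/+ (log2 fold change -1.11 ± 0.17, adjusted p = 0.0117). Its groups did not overlap, but WaplΔ/+ replicate 2 was the library nearest to WT. The log2 fold change of Lcor was -0.80 among low-set and -1.31 among high-set libraries. Those of Nwd1 were -0.29 and -0.55, of Mcc -0.44 and -0.38, and of Gm45718 -1.09 and -2.02. Gm45718, an unnamed transcript, ran from 31.4 to 55.4 in WT and from 7.3 to 31.8 in WaplΔ/+ (log2 fold change -1.70 ± 0.25, adjusted p = 0.0098), where replicate 2 reached the lowest WT library. Gjb2 (chr14:57098602-57104702), which encodes the gap junction protein connexin 26, was the member of the 8 that rose. It had 199, 253, 207, 235 and 235 in WT and 285 to 360.3 with a median of 310.4 in WaplΔ/+, without overlap (log2 fold change 0.48 ± 0.075, adjusted p = 0.0118), and its log2 fold change was 0.41 among low-set and 0.46 among high-set libraries.

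**Figure D2:**
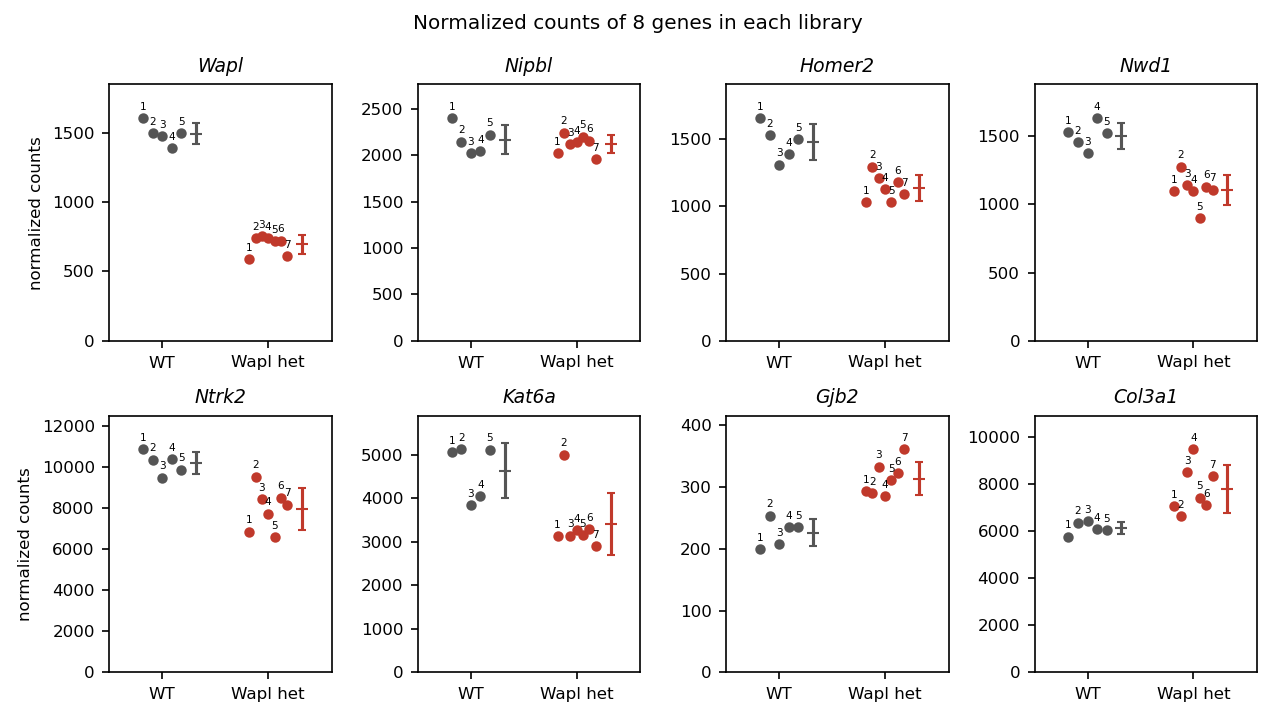
Normalized counts (y axis, from 0) of 8 genes in each of the 5 WT (grey) and 7 WaplΔ/+ (red) libraries, numbered by replicate, with the mean ± SD beside each group. Wapl, Homer2, Nwd1, Gjb2 and Col3a1 show no overlap, Nipbl overlaps throughout, and in Kat6a WaplΔ/+ replicate 2 lies at 4998, among the WT values.

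Among the synapse genes listed, those called were lower, with 1 exception. Of 48 postsynaptic scaffold and adhesion genes tested, 8 fell and 1 rose, which is 18.8% called against 2.22% of all genes tested and 7.19% of genes above 100 CPM, and 35 had a log2 fold change below 0 (median -0.0645, against -0.0034 over all genes tested). The median was -0.129 among low-set and -0.0183 among high-set libraries, and 12 members were called without WaplΔ/+ replicate 2. Homer2 was the member with the smallest p. Neurexins and neuroligins are adhesion proteins that join the presynaptic and the postsynaptic membrane. Nlgn1 had 1786, 1803, 1718, 1707 and 1749.5 normalized counts in WT and 1386 to 1693 with a median of 1538 in WaplΔ/+, without overlap (log2 fold change -0.18 ± 0.040, adjusted p = 0.0402). The presynaptic partner gene Nrxn3 fell too (-0.26 ± 0.057, adjusted p = 0.0425), but WaplΔ/+ replicate 2 lay above WT replicate 3. The member that rose, named after its value was seen, was the scaffold gene Dlgap4, without overlap (0.13 ± 0.031, adjusted p = 0.0591). Among 35 synaptic vesicle and release genes, 2 fell, Sv2c, a vesicle membrane glycoprotein (-0.34 ± 0.072, adjusted p = 0.0381), and Syn3, synapsin III (-0.40 ± 0.10, adjusted p = 0.0574), and 29 of the 35 lay below 0 (median -0.0551).

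Among the voltage-gated channels and transmitter receptors listed, every called gene was lower. Of 33 sodium and calcium channel genes, 5 fell (15.2%) and none rose (8 were called without WaplΔ/+ replicate 2), with a median of -0.0898 among low-set and 0.0065 among high-set libraries. Over all genes tested 2.22% were called, and 7.19% of genes above 100 CPM. Their median length is 111 kb, and 7.1% of protein-coding genes of 100 to 300 kb at 1 CPM or more were called. Scn8a, the sodium channel Nav1.6 of axon initial segments (chr15:100869863-101045938), had 4510.4, 4226, 4089.8, 4254 and 4453 in WT and 3084 to 4206 with a median of 3492 in WaplΔ/+ (log2 fold change -0.29 ± 0.053, adjusted p = 0.0381). One WaplΔ/+ library, replicate 2, lay among the WT values and the other 6 below them. The presynaptic calcium channel genes Cacna1b (-0.21 ± 0.045, adjusted p = 0.0434) and Cacna1a (-0.15 ± 0.038, adjusted p = 0.0716) fell, as did the L-type channel gene Cacna1d (-0.21 ± 0.047, adjusted p = 0.0477). Of 40 potassium channel genes 2 fell, among them Kcna1 (Kv1.1, -0.69 ± 0.17, adjusted p = 0.0591). The NMDA receptor subunit gene Grin2b was the 1 called of 25 glutamate receptor genes, at 9494, 9395, 8402, 8907 and 8541 in WT and 6332 to 8565 with a median of 7111 in WaplΔ/+ (log2 fold change -0.30 ± 0.060, adjusted p = 0.0381). None of 19 GABA and glycine receptor genes was called by edgeR, and DESeq2 called 3. An unadjusted p under 0.05 was found for 9 of them, against 4780 of all 30552 genes tested. All 19 had a log2 fold change below 0 (median -0.106).

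Of 42 genes of dendrite development, 5 fell (11.9%) and 33 lay below 0 (median -0.069). Over all genes tested 2.22% were called, and 7.19% of genes above 100 CPM. The listed genes are long, with a median of 263 kb. Of protein-coding genes at 1 CPM or more, 7.1% were called at 100 to 300 kb and 11.9% over 300 kb. Ntrk2, the receptor TrkB for brain-derived neurotrophic factor (chr13:58806472-59133970), had 10847, 10351, 9480.4, 10383 and 9866 in WT and 6572 to 9525 with a median of 8167 in WaplΔ/+ (log2 fold change -0.35 ± 0.065, adjusted p = 0.0381). WaplΔ/+ replicate 2 and WT replicate 3 met, and the remaining libraries were apart. Reln, the secreted guide of migrating cortical neurons, had 9937, 10630, 7882, 9037 and 9476 in WT and 6399.5 to 9026 with a median of 7417 in WaplΔ/+ (log2 fold change -0.33 ± 0.070, adjusted p = 0.0381), with WaplΔ/+ replicate 2 above the lowest WT library and the other 6 below it. The guanine nucleotide exchange factor gene Trio (-0.32 ± 0.068, adjusted p = 0.0392) and the neurotrophin receptor scaffold gene Kidins220 (-0.18 ± 0.051, adjusted p = 0.0948) also fell, each with WaplΔ/+ replicate 2 above the WT median. The 5 most abundant genes called lower were Map1b, Sptan1, Dync1h1, Sptbn1 and Kidins220. The spectrin genes Sptan1 (-0.27 ± 0.055, adjusted p = 0.0381) and Sptbn1 (-0.29 ± 0.057, adjusted p = 0.0381), the dynein heavy chain gene Dync1h1 (-0.30 ± 0.073, adjusted p = 0.0584) and the microtubule protein gene Map1b (-0.17 ± 0.042, adjusted p = 0.0615) all fell, with WaplΔ/+ replicate 2 inside the WT range each time.

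Chromatin regulators of the list that were called were all lower, 6 of 47 tested (12.8%, and 16 without WaplΔ/+ replicate 2). Over all genes tested 2.22% were called, and 7.19% of genes above 100 CPM. The list as a whole was divided, with 26 members below 0 and 21 above (median -0.0319). Besides Lcor the called members included the acetyltransferase genes Kat6a and Crebbp and the remodeller gene Chd8. Kat6a (chr8:22859442-22943259) had 5047, 5117, 3838, 4042 and 5111 in WT and 2902 to 4998 with a median of 3145 in WaplΔ/+ (log2 fold change -0.44 ± 0.10, adjusted p = 0.0563). The highest WaplΔ/+ value was replicate 2 and lay among the upper WT values, while the other 6 libraries were below every WT library. Chd8 had 5883, 6097, 5228, 5489 and 5880.5 in WT and 4325 to 6023 with a median of 4544 in WaplΔ/+, with the same library at the WT level (log2 fold change -0.27 ± 0.062, adjusted p = 0.0503). Crebbp fell less (-0.20 ± 0.048, adjusted p = 0.0574), and its log2 fold change was -0.03 among low-set and -0.32 among high-set libraries. In 4 other lists 1 or 2 members fell. Of 24 radial glia and progenitor genes, Ptprz1 (-0.24 ± 0.057, adjusted p = 0.0574) and Tnc (-0.16 ± 0.037, adjusted p = 0.0503) fell, while 18 lay above 0 (median 0.143). Of 18 cortical transcription factor genes, 9 lay above and 9 below 0, and Foxp1 fell without overlap (-0.18 ± 0.034, adjusted p = 0.0381). The ciliary dynein gene Dnah5 fell (-0.57 ± 0.12, adjusted p = 0.0433) in an ependyma list with 6 of 11 members above 0. The myelin gene Mog fell (-0.22 ± 0.061, adjusted p = 0.0919) in an oligodendrocyte list with 11 of 17 members below 0. Among the largest decreases without overlap were the receptor gene Tshr at 59 to 92.3 in WT and 36.5 to 55.7 in WaplΔ/+ (-0.62 ± 0.13, adjusted p = 0.0381) and the growth factor gene Hgf at 45 to 56 and 16.2 to 41.2 (-0.66 ± 0.17, adjusted p = 0.0661).

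The direction of the calls differed with gene length. Among protein-coding genes whose mean reached 1 CPM, those called lower had a median length of 123.9 kb from start to end (295 genes), those called higher 15.8 kb (200 genes), and all tested 25.3 kb (14151 genes). Of 3322 genes under 10 kb, 66 were called higher and 15 lower, and their median log2 fold change was 0.053. Of 4542 genes of 10 to 30 kb, 83 were higher and 28 lower. From 30 to 100 kb the balance turned, with 39 of 4074 genes higher and 82 lower. Of 1690 genes of 100 to 300 kb, 11 were higher and 109 lower, and of 523 genes over 300 kb, 1 was higher and 61 were lower, or 11.9% called, with a median of -0.075. The median of the longest class minus that of the shortest was -0.13 on the log2 scale. The same difference was taken in each WT library against the mean of the other WT libraries, and in each WaplΔ/+ library against the mean of all WT libraries. It was 0.0498, 0.0354, -0.0638, -0.0341 and 0.00816 in WT replicates 1 to 5. In WaplΔ/+ replicates 1 to 7 it was -0.27, -0.0478, -0.0523, -0.138, -0.202, -0.0471 and -0.13. WaplΔ/+ replicates 1 and 5 were the lowest of the 12, while replicates 2, 3 and 6 lay above WT replicate 3, so the groups overlapped. In the high set, the 2 WT libraries (-0.0341 and 0.00816) lay above all 5 WaplΔ/+ libraries.

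**Figure D3:**
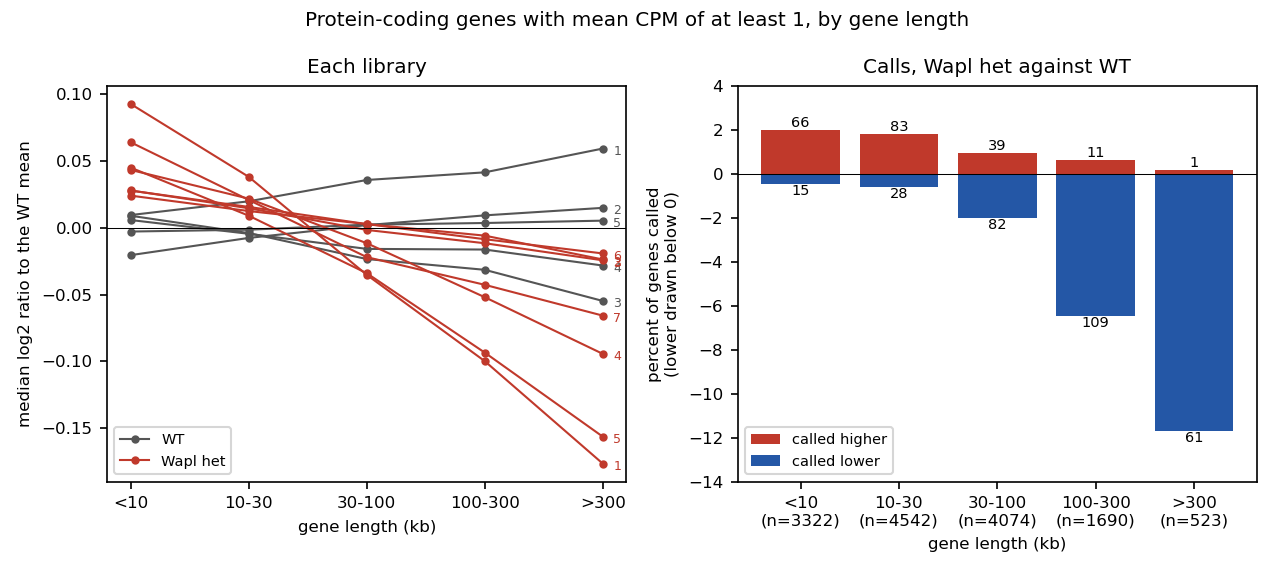
Protein-coding genes whose mean reached 1 CPM, grouped by gene length in kb. Left, the median log2 ratio to the WT mean in each WT (grey) and WaplΔ/+ (red) library, where WaplΔ/+ replicates 1 and 5 fall furthest in the class over 300 kb. The mean for a WT library is that of the other WT libraries. Right, the percent of genes called higher (red, above 0) and lower (blue, below 0) with their numbers, from 66 and 15 in the shortest class to 1 and 61 in the longest.

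Many of the neuronal genes above are long. When a smooth trend of level on gene length was removed from each library, a step added after the data had been seen, 359 genes were called (147 higher and 212 lower) of 24336 with a known length, against 487 (140 higher and 347 lower) of the same genes without the step. Wapl (-1.06), Homer2 (-0.33), Nwd1 (-0.41), Mcc (-0.30) and Ntrk2 (-0.27) remained called, with the log2 fold changes given. Foxp1, of 597405 bases, went from -0.18 to -0.08 (adjusted p = 0.394) and Nlgn1, of 911059 bases, from -0.18 to -0.07 (adjusted p = 0.311). Among these genes with a known length, the sodium and calcium channels went from 5 called to 1 and the postsynaptic genes from 8 to 5, while dendrite development had 5 in both fits. List medians moved too. They went from -0.069 to -0.0025 in dendrite development, from -0.038 to -0.0014 in sodium and calcium channels and from -0.064 to -0.023 in postsynaptic genes. The median of GABA and glycine receptors went from -0.106 to -0.061, and that of collagens and matrix from 0.115 to 0.134. That of the chromatin regulators went from -0.032 to 0.028, and their called members from 6 to 4. The part of the length trend in these calls beyond these values was not tested.

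In the list of collagens and matrix, called genes were higher with 1 exception. Of its 40 genes, 8 rose and 1 fell, and 32 had a log2 fold change above 0 (median 0.115). That is 22.5% called, against 2.22% of all genes tested, 3.45% of those at 10 to 100 CPM and 7.19% above 100 CPM. Tnc and Reln, which also encode matrix proteins, belong to other lists and fell. Without WaplΔ/+ replicate 2, 14 were called. Col3a1 (chr1:45311538-45349706), a fibrillar collagen, had 5757, 6356, 6426, 6071 and 6030.4 in WT and 6637 to 9464 with a median of 7423 in WaplΔ/+, without overlap (log2 fold change 0.35 ± 0.067, adjusted p = 0.0381). Lox, the enzyme that crosslinks collagen, had 438, 498, 439.8, 429.8 and 428 in WT and 477 to 644 with a median of 533 in WaplΔ/+ (log2 fold change 0.31 ± 0.064, adjusted p = 0.0381), where WT replicate 2 reached the WaplΔ/+ range. The matrix glycoprotein gene Fbln1 rose without overlap (0.15 ± 0.037, adjusted p = 0.0574). The member that fell was Fbn1, which encodes the microfibril protein fibrillin-1, at 1169 to 1390.3 in WT and 942 to 1203 in WaplΔ/+ (-0.25 ± 0.057, adjusted p = 0.0503). In meningeal fibroblasts, the cells of the membranes around the brain, 20 of 22 marker genes lay above 0 (median 0.145) and 3 rose, Gjb2, Col1a2 (0.38 ± 0.10, adjusted p = 0.0891) and Col1a1. Col1a1 had 3610.3, 3453, 5940.4, 3886 and 3461 in WT and 4013 to 9986 with a median of 6238 in WaplΔ/+ (log2 fold change 0.62 ± 0.18, adjusted p = 0.0952), with WT replicate 3 far above the other WT libraries. The summed level of the 22 markers was 1357 to 1578 CPM in WT and 1378 to 1831 CPM in WaplΔ/+. The medians of the matrix and the meningeal list were -0.0144 and 0.0296 among low-set and 0.122 and 0.145 among high-set libraries. In whole tissue, more cells of a type and more RNA per cell cannot be told apart.

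A few vessel genes were called as well. Of 20 brain endothelium genes, Prnd, Egfl7 and Cdh5 rose and Abcb1a fell. That is 20% called, against 2.22% of all genes tested and 3.45% of genes at 10 to 100 CPM. Prnd, the prion-like gene doppel of developing brain vessels (chr2:131950861-131956131), had 149.7, 159, 173, 184 and 164 in WT and 185 to 247 with a median of 217 in WaplΔ/+, just without overlap (log2 fold change 0.37 ± 0.082, adjusted p = 0.0457). Egfl7, a secreted vessel protein (0.17 ± 0.045, adjusted p = 0.0789), and Cdh5, the endothelial cadherin (0.15 ± 0.043, adjusted p = 0.0998), were also separate from WT. Abcb1a, the drug efflux pump of the blood-brain barrier, measured 359 to 409 in WT and 269.7 to 363 in WaplΔ/+ (-0.26 ± 0.071, adjusted p = 0.0938). The summed level of the 20 genes was 497 to 526 CPM in WT and 498 to 549.8 in WaplΔ/+, so the sums overlapped between the groups. Pdgfrb, the receptor that marks pericytes, was the 1 called of 13 mural genes (0.19 ± 0.039, adjusted p = 0.0381). Further genes among the largest increases without overlap were Sox7, an endothelial transcription factor gene (0.35 ± 0.075, adjusted p = 0.0409), Flnc, which encodes an actin crosslinker (0.33 ± 0.064, adjusted p = 0.0381), and Mdk, the growth factor midkine (0.30 ± 0.066, adjusted p = 0.0437).

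Called genes of axon guidance moved in both directions. Of 51 genes, 3 rose and 1 fell, and 13 were called without WaplΔ/+ replicate 2. That is 7.84% called, against 2.22% of all genes tested and 7.19% of genes above 100 CPM. Ntn1, the guidance cue netrin-1 (chr11:68209364-68386826), had 2462, 2239.9, 2397, 2287 and 2454 in WT and 2566 to 2994 with a median of 2715 in WaplΔ/+ (log2 fold change 0.23 ± 0.044, adjusted p = 0.0381). Its repulsive receptor gene Unc5b had 798, 909, 886, 893 and 849 in WT and 938 to 1125 with a median of 1013 in WaplΔ/+ (log2 fold change 0.24 ± 0.047, adjusted p = 0.0381). Neither gene overlapped between the groups, and both kept their direction and their call with the length trend removed. Efna2, an ephrin ligand gene, rose (0.15 ± 0.043, adjusted p = 0.0964), and Epha4, an ephrin receptor gene, fell (-0.16 ± 0.043, adjusted p = 0.091). In the Wnt list, 1 of 40 genes was called, the feedback inhibitor gene Axin2 (0.16 ± 0.036, adjusted p = 0.0439), and 30 lay above 0. That share of 2.5% is near the 2.22% of all genes tested, and 5 were called without WaplΔ/+ replicate 2 and 9 by DESeq2.

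Cell cycle genes lay above 0 in 30 of 30 cases (median 0.14), but 2 were called (6.67%, against 2.22% of all genes tested). Called were the mitotic kinase gene Cdk1 (0.28 ± 0.062, adjusted p = 0.0463) and Birc5, which encodes survivin (0.30 ± 0.077, adjusted p = 0.0698). The list medians in the low and the high set were 0.217 and 0.115. All 46 cytoplasmic ribosomal protein genes, which are short, also lay above 0 (median 0.0554), of which Rps2 was called (0.12 ± 0.030, adjusted p = 0.0606), and with the length trend removed that median was 0.0191. Of 20 cholesterol synthesis genes, 2 rose, among them the regulator gene Srebf2 (0.10 ± 0.028, adjusted p = 0.0957). The 5 most abundant genes called higher were Ptprs, Apc2, Prrc2a, Ftl1 and Lmtk3, all with log2 fold changes of 0.13 to 0.20. Ftl1, the light chain of the iron store ferritin, had 21960, 22361, 22714, 23092 and 23320 in WT and 24422 to 27202 with a median of 25207 in WaplΔ/+, without overlap (log2 fold change 0.17 ± 0.031, adjusted p = 0.0381). Ribosomal protein genes, Ftl1 and the alpha globin genes have near-identical copies in the genome, and how the counting treated reads shared by copies is not given in the sources used here, so their counts are uncertain to that extent.

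**Figure D4:**
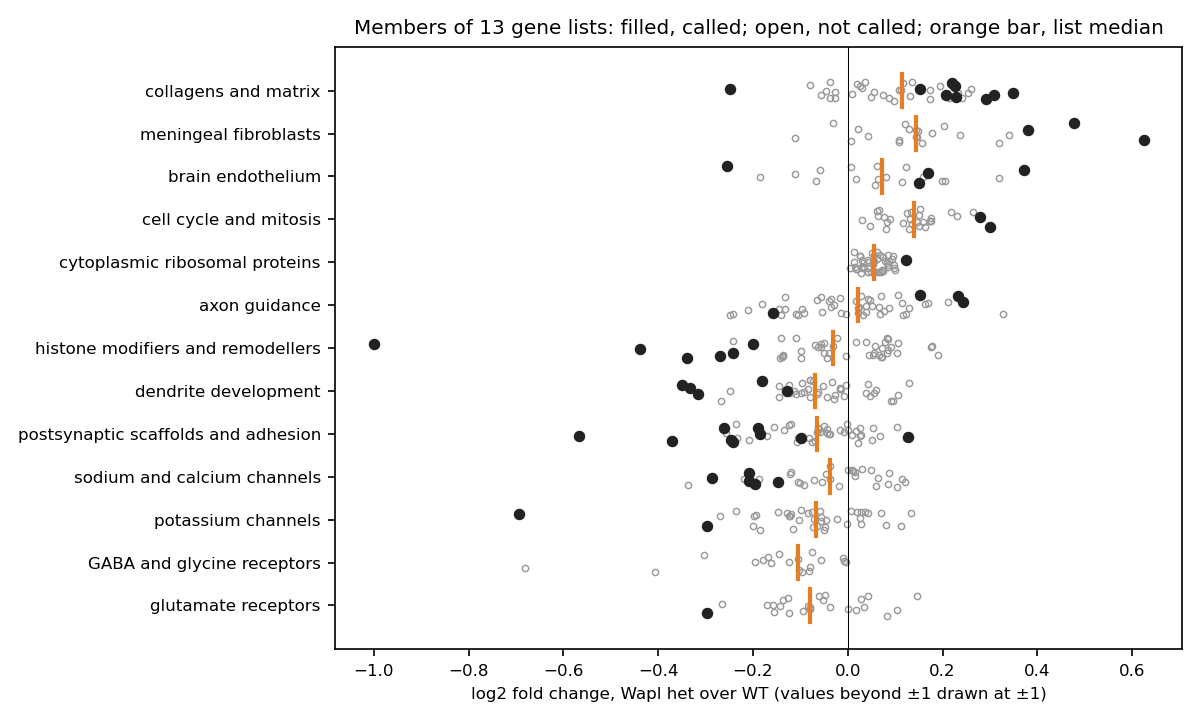
Log2 fold change of WaplΔ/+ over WT (x axis, drawn within ±1) for the members of 13 gene lists (y axis). Filled points were called, open points were not, and orange bars mark list medians, which run from -0.106 for GABA and glycine receptors to 0.145 for meningeal fibroblasts.

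Other cell types that dissected tissue can hold gave few calls. None of the markers of bone and cartilage (15 tested), microglia (16), border-associated macrophages (10), erythroid cells (13), choroid plexus (14), astrocytes (20), early neurons (18) or the hypothalamus (15) was called by edgeR. At an unadjusted p under 0.05 the counts were 3, 1, 1, 3, 4, 10, 3 and 2 in that order, against 4780 of all 30552 genes tested. DESeq2 called 1 choroid plexus, 3 astrocyte and 2 early neuron genes. Among astrocyte genes, which lay below 0 in 15 of 20 cases (median -0.134), limma-voom called 2, and edgeR called 4 within the low set, 0 within the high set and 1 with the set as a term. The intermediate filament gene Gfap measured 428, 401, 483, 589.8 and 483 in WT and 128.8 to 466 with a median of 214 in WaplΔ/+ (log2 fold change -0.78 ± 0.23, adjusted p = 0.107). The water channel gene Aqp4 measured 1069 to 1260.2 and 529.5 to 1203 (-0.48 ± 0.15, adjusted p = 0.125), and the glutamate transporter gene Slc1a2 4171 to 4781 and 3584 to 4376 (-0.14 ± 0.042, adjusted p = 0.123), so the WaplΔ/+ libraries spread widely for Gfap and Aqp4. Cartilage collagen Col2a1 measured 929.7 to 1352 in WT and 1029 to 3048 in WaplΔ/+ (0.64 ± 0.19, adjusted p = 0.107), and the summed bone and cartilage markers reached 177 CPM in a WaplΔ/+ library against at most 114 in WT. The summed erythroid markers ran from 423 to 722 CPM in WT and from 349.5 to 815 in WaplΔ/+, and the globin gene Hba-a2 had 1066 to 2551 in WaplΔ/+ and 1191 to 2129.5 in WT (0.39 ± 0.18, adjusted p = 0.286). Markers of brain identity were at 4154 to 4280 CPM in WT and 4078 to 4333 in WaplΔ/+, and all 12 were detected. The part of the other cell types in the matrix and vessel values was not tested.

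Some calls rested on very few reads or on 1 or 2 libraries. Of the 677 called genes, 16 had a mean under 0.1 CPM and 54 a mean of 0.1 to 1 CPM. Gh and Hoxb1 are given as examples. Gh, the pituitary growth hormone gene, had 2109.6 normalized counts in WT replicate 2 and at most 17.2 in each of the other 11 libraries, so its fold change describes that library. Hoxb1 had 0 counts in 4 WT libraries, 0.982 in the fifth and 0.995 to 2.88 in WaplΔ/+, all at or under 3 counts, and no fold is given. Hoxb1 was the 1 called of 24 Hox genes tested (4.17%, against 2.22% of all genes tested), of which 22 lay above 0 (median 0.155).

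Lists of immediate early, heat shock and unfolded protein, hypoxia, p53, interferon, circadian and mitochondrially encoded genes had no called member by edgeR. At an unadjusted p under 0.05 they had 7, 3, 4, 2, 2, 1 and 1 members in that order, against 4780 of all 30552 genes tested. DESeq2 called 2 heat shock and unfolded protein genes, 1 hypoxia gene, 1 p53 gene and 1 interferon gene.

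Clustered protocadherins, adhesion proteins whose promoters are chosen with the help of cohesin and CTCF, were not called by edgeR. Of 22 beta cluster genes, a group the study also examined in these samples, 16 lay above 0 (median 0.114), 0 were called by edgeR and DESeq2 called 2. An unadjusted p under 0.05 was found for 8 beta genes, against 4780 of all 30552 genes tested. Pcdhb17, the member with the smallest p, had 761, 629, 672, 684 and 642 in WT and 683 to 836 with a median of 777 in WaplΔ/+ (log2 fold change 0.19 ± 0.055, adjusted p = 0.112). The 13 alpha genes all lay below 0 (median -0.0916) and the 22 gamma genes all above (median 0.0219), with 9 and 0 at an unadjusted p under 0.05 and none called by DESeq2, but the genes of each of these clusters share their last exons and so share reads, and the counts of their members are not separate measurements. Of 35 imprinted genes, Igf2r, the receptor that clears IGF2, fell (-0.27 ± 0.069, adjusted p = 0.0644) and the paternally expressed gene Mest rose (0.23 ± 0.063, adjusted p = 0.0931). That was 5.71% of the list, against 2.22% of all genes tested, 3.45% of those at 10 to 100 CPM and 7.19% above 100 CPM. Without WaplΔ/+ replicate 2, 9 imprinted genes were called.

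Genes next to the deletion were examined because the allele came from another strain. Of 23 genes tested within 1 Mb of Wapl (Wapl aside), 3 were called, all lower (13%), against 4 of 132 from 1 to 10 Mb (3.03%), 15 of 773 further along chromosome 14 (1.94%) and 536 of 23407 on other chromosomes (2.29%). The 13% includes 1 gene inside the span of Wapl and so does not describe neighbours alone. Among genes whose mean reached 1 CPM, 1 of 11 within 1 Mb was called (9.09%), against 518 of 15028 on other chromosomes (3.45%). The nearest of the 3 was 5830448L01Rik (chr14:34672971-34674668), a long noncoding RNA that lies inside the span of Wapl and begins 592 bases after its start. It had 52.9, 42.1, 38.3, 49.5 and 36 in WT and 13.7 to 21.9 with a median of 20.2 in WaplΔ/+, a decrease close in size to that of Wapl (log2 fold change -1.18 ± 0.16, adjusted p = 0.00316). The study gives the loxP sites relative to its main transcription start, whose coordinate on this build it does not give. Counted from the start of Wapl used here, the transcript lies within the removed segment. From a start further downstream, part of it could lie outside. The transcript overlaps Wapl and is not a neighbour of it. Strand use in the counting is not given in the sources used here, so reads of the 2 overlapping genes cannot be told apart. The others were A930038B10Rik, 12.2 kb away (-0.83 ± 0.23, adjusted p = 0.0964), and Gprin2, 471 kb away, at 2064 to 2564 in WT and 1603 to 2414 in WaplΔ/+ (-0.39 ± 0.079, adjusted p = 0.0381). The next called gene, Ankrd28, was 2842 kb away (-0.12 ± 0.034, adjusted p = 0.0941). Without the genes within 10 Mb of Wapl 583 genes were called, all of them among the 677. That fit still held 669 of the 677, in the same direction, so most genes that lost the call lie outside that window.

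The called genes did not move equally in the 7 WaplΔ/+ libraries. Over the 442 genes called lower, the median log2 ratio to the WT mean was -0.047 in WaplΔ/+ replicate 2 and between -0.478 and -0.297 in the other 6. WaplΔ/+ replicate 2 was the highest of its group for 327 of the 442 genes (74%), and WT replicate 3 the lowest of its group for 272 (61.5%). Over the 235 genes called higher, all 7 WaplΔ/+ libraries had medians from 0.106 (replicate 2) to 0.262 (replicate 5), above the WT libraries at -0.0466 to 0.0368. These values describe genes chosen by the same contrast and are not a test. The split was sharpest among 19 genes that were lower by more than 2-fold and whose mean reached 1 CPM. They include Gh, high in WT replicate 2 alone. They also include a pseudogene with 204 and 232 normalized counts in WT replicates 2 and 3 and at most 1.92 in every other WT and WaplΔ/+ library. For 14 of the 19, WaplΔ/+ replicate 2 was the 1 WaplΔ/+ library at or above the lowest WT library. Their median level was 97.5% of the WT mean in WaplΔ/+ replicate 2 and 16% to 31.3% in the other 6. Of the 19 genes, 9 had no match in the reference table. The other genotypes were spread over the same range, with 30.2%, 51.2% and 75.8% in the 3 Nipbl+/- libraries and 17.1% to 103% in the 6 double heterozygotes.

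Shc3, Hipk2, Gm37608 and 1700099I09Rik, chosen after their values were seen, show this pattern. Shc3, a neuronal adaptor of receptor tyrosine kinases (chr13:51423389-51569451), had 519, 608, 263, 374 and 507 in WT, 453 in WaplΔ/+ replicate 2 and 97.4 to 137 in the other 6 (log2 fold change -1.45 ± 0.29, adjusted p = 0.0381). Hipk2, a nuclear serine/threonine kinase (chr6:38687512-38876331), had 1902, 2172, 1302, 1633 and 1992 in WT, 1962 in WaplΔ/+ replicate 2 and 417 to 803 in the other 6 (log2 fold change -1.14 ± 0.26, adjusted p = 0.046). The noncoding transcript 1700099I09Rik had 77.6 to 116 in WT, 112 in WaplΔ/+ replicate 2 and 7.3 to 24 in the other 6 (-1.78 ± 0.40, adjusted p = 0.0463). Gm37608, another unnamed transcript, had 105 to 158 in WT, 132 in that library and 6.09 to 48.7 in the others (-1.67 ± 0.35, adjusted p = 0.0381). Wapl itself stood at 740.5 in WaplΔ/+ replicate 2, inside the range of its group, so the deletion was measured in that library as in the others.

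**Figure D5:**
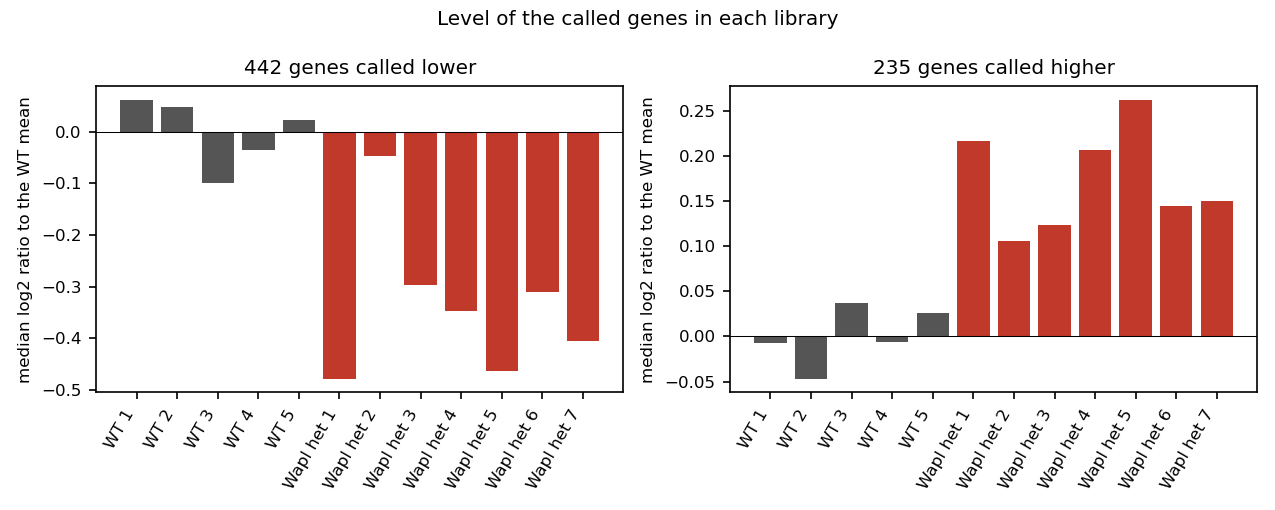
Median log2 ratio to the WT mean (y axis) of the 442 genes called lower (left) and the 235 called higher (right) in each WT (grey) and WaplΔ/+ (red) library. WaplΔ/+ replicate 2, at -0.047, lies at the WT level for the lower genes and at 0.106 for the higher genes.

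Wapl loss was also set directly against Nipbl loss, since both comparisons with WT share the WT libraries. Between the 7 WaplΔ/+ and the 3 Nipbl+/- libraries 354 genes (1.16%) were called, 271 higher and 83 lower in WaplΔ/+. The count was 69 without Nipbl+/- replicate 3, 128 without Nipbl+/- replicate 1, 207 without WaplΔ/+ replicate 3, 600 without WaplΔ/+ replicate 1 and 236 or more without any other library. All 3 Nipbl+/- libraries belong to the low mt-Nd3 set and 5 of the 7 WaplΔ/+ libraries to the high set, so genotype and set are largely confounded here, and within the low set (2 against 3) 8 genes were called. Of the 85 genes described here, 8 differed between the 2 mutants. They included the targets, with Nipbl at 1176 ± 97.9 in Nipbl+/- (SD, n = 3) and 2120.1 ± 99.2 in WaplΔ/+ (SD, n = 7; log2 difference 0.85 ± 0.056, adjusted p = 6.89e-07), and Wapl together with 5830448L01Rik. Pcdhb17 was higher in WaplΔ/+ by 1.29 ± 0.073 (adjusted p = 1.13e-07), with 314 ± 13.7 normalized counts in Nipbl+/-. Gjb2 (by 0.63, adjusted p = 0.00946), Prnd (by 0.83, adjusted p = 0.00445) and Lox (by 0.40, adjusted p = 0.0823) were also higher in WaplΔ/+, and Stag1 was lower (-0.24, adjusted p = 0.0501). Means in WT, WaplΔ/+ and Nipbl+/- were 226, 313 and 202 for Gjb2 and 166, 214 and 121 for Prnd. They were 447, 551 and 417.5 for Lox, 2139, 1958 and 2309.5 for Stag1, and 678, 770 and 314 for Pcdhb17. For each of these the WT mean lay between the 2 mutants, and Nipbl+/- was not tested against WT here. Homer2, with 1137 ± 97.2 in WaplΔ/+ and 1031 ± 118 in Nipbl+/-, did not pass (log2 difference 0.14 ± 0.077, adjusted p = 0.563), nor did Ntrk2 (0.18 ± 0.10, adjusted p = 0.562). The difference between genes over 300 kb and under 10 kb was -0.34, -0.138 and -0.174 in the 3 Nipbl+/- libraries, which overlaps the WaplΔ/+ range of -0.27 to -0.0471.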

How the data were processed

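Poly(A) RNA of 21 embryonic brains was sequenced in the study, and 12 libraries (5 WT and 7 WaplΔ/+) enter the main comparison. The deposited values are counts per gene, which the authors made by trimming with cutadapt 2.4, aligning with STAR 2.5.3a and counting with featureCounts of Subread 1.6.4 (MultiQC 1.9 is also named), on mm10 and GRCm38.p6 according to the submitters' processing notes. The annotation and the strand setting are not given in the sources used here. Groups were taken from the genotype labels. Gene symbols came from the table itself, and coordinates, lengths and gene types from RefSeq by symbol (24076 genes) or synonym (260), while 6216 of the genes tested had no match.

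Of 55335 genes, 30552 reached 10 TMM-normalized counts in sum over all 21 libraries and were tested with the quasi-likelihood test of edgeR 4.0.16 in R 4.3.3, fitted on the 12 libraries (10 for the comparison with Nipbl+/-), and called at a Benjamini-Hochberg adjusted p below 0.10. Alternatives were DESeq2 1.42.0, limma-voom (limma 3.58.1), other normalizations, filters and thresholds, fits without each library, the replicate number as a block and the mt-Nd3 sets. Library totals of 25682566 to 35818767 counts limit the precision of genes with few counts, and counts of up to 3 were given no fold. The length trend was removed by a loess fit (span 0.5) of log2 CPM on log gene length in each library. List medians, counts above and below 0 and summed CPM are descriptions without a test.

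The genes named were Wapl, Nipbl and the cohesin list, the 10 called genes that rose most and the 10 that fell most among those at 1 CPM or more whose groups were apart, the genes called in all fits without a library, up to 4 called members a list by p (for a list without calls, up to 3), the 5 called genes nearest to Wapl and the 5 most abundant called genes in each direction. Some genes that the rule admits are not reported here, and those outside it are marked where they appear. The members and the gene lists were chosen with earlier results of these data known.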

Additional observations from a re-analysis of the deposited data

Results flagged for a closer look

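Over the 85 genes described and the difference between long and short genes, 172 groups of libraries were examined for a library far from the rest of its group by Dixon's test, which chance alone marks in about 1 group of 20. It marked 24. WaplΔ/+ replicate 2 accounted for 12 of them, each time as the highest of its group: 4998 normalized counts of Kat6a, 6023 of Chd8, 10330 of Trio, 26890 of Kidins220, 41450 of Sptan1, 3327 of Igf2r, 2415 of Gprin2, 1962 of Hipk2, 452.8 of Shc3, 132.4 of Gm37608, 112.5 of 1700099I09Rik and 31.85 of Gm45718. All 12 values lay above the lowest WT library, and all 12 genes were called lower. Shc3, Hipk2, Gm37608 and 1700099I09Rik had been picked for this pattern, so their marks add nothing.

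WT replicate 3 stood apart in 5 genes. It was high for the collagens Col1a1 (5940 normalized counts) and Col1a2 (7756), low for Cacna1d (2777) and Dnah5 (95.23), and the 1 WT library with a count of Hoxb1 (0.9817). WT replicate 2 stood apart with 2110 for the pituitary gene Gh and 497.7 for Lox, and WT replicate 1 was low for Cdh5 (1303). Among the other WaplΔ/+ libraries, replicate 1 was high for Gh (17.24) and Rps2 (12030), replicate 3 high for the cartilage gene Col2a1 (3048), and replicate 6 low for the globin gene Hba-a2 (1066).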

How the results depend on the processing

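The decrease of Wapl held in every fit, with log2 fold changes from -1.118 to -1.059 when each library was left out. The number of genes called against WT did not: it ran from 9 to 1534 over the 12 fits without a library (lowest without WT replicate 2, highest without WaplΔ/+ replicate 2). The values without WT replicates 1, 4 and 5 (13, 246 and 99) and without WaplΔ/+ replicates 1, 4 and 5 (444, 241 and 264) also fell beyond the 1.5-fold range. It was 1446 with DESeq2, which set no adjusted p for 17180 genes, 181 at an adjusted p below 0.05, 7 with all 4 genotypes in one fit, 305 with the mt-Nd3 set as a term, 47 in the low and 278 in the high mt-Nd3 libraries, 1300 with the WaplΔ/+ libraries whose label writes the deleted copy second and 991 with those that write it first. Removing the length trend left 359 and moved the difference between genes over 300 kb and under 10 kb from -0.1277 to -0.0007778, as its construction fixes. That difference was -0.1397 to -0.09819 when each library was left out. The share of higher calls, 34.7%, was 49.7% with DESeq2, 46.5% with robust edgeR, 5.76% in the high mt-Nd3 libraries and 24.9% at the stricter threshold. Counts of limma-voom (757), robust edgeR (473), other size factors (658), 3 other filters (697 to 997) and without genes near Wapl (583) stayed within 1.5 times. The planned legacy setting is the default of this version, and legacy=FALSE gave 652.

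With the replicate number as a block, 1996 genes were called against WT, and 1729 in the same libraries with no replicate block. WT and WaplΔ/+ libraries of the same number did not deviate together (r = -0.0319, 0.15, -0.0232, -0.108 and 0.114), and 3 of the 5 WT libraries matched another number best. Between Nipbl+/- and WaplΔ/+ replicates 1 to 3 the values were 0.362, 0.00482 and -0.17. The labels give no meaning to the number, and whether it stands for a pairing was not tested. Against Nipbl+/- the block gave 204 and the same libraries without it 27. That count of 354 was 647 with DESeq2, 196 at an adjusted p below 0.05, 568 with all 4 genotypes, 8 in the low mt-Nd3 libraries and 69 to 600 without each library.

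Of the 2782 values of the 85 genes under alternatives, 2003 kept direction and call, 726 lost the call, 49 gained it and 4 changed sign: Gh at 0 in the high mt-Nd3 libraries and 2.094 without WT replicate 2 (range over the fits without a library -11.72 to 2.094), and Nipbl, never called, at 0.03339 with the length trend removed and 0.008406 without WT replicate 1 (range -0.04949 to 0.008406). The legacy=FALSE, length, unblocked and Nipbl+/- low-set fits were chosen after seeing the data. Why calls depend on these settings was not tested.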

Other observations

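Of the 677 called genes, 501 are protein coding in RefSeq (201 higher and 300 lower), 43 are long noncoding RNAs (4 higher and 39 lower), 8 are pseudogenes (1 higher and 7 lower) and 118 had no match by name (27 higher and 91 lower). Among genes whose mean reached 1 CPM, 3.24% of 1049 long noncoding RNAs and 3.5% of 14151 protein-coding genes were called, so the shares were close, but 30 of the 34 called long noncoding RNAs were lower against 295 of the 495 called protein-coding genes. This difference was not tested. Called genes were found on every autosome and on X, from 1.94% of the genes tested on chromosome 2 to 2.91% on chromosome 8, with 2.48% on chromosome 14, which carries Wapl, and 2.21% on X.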
